A study of Mus musculus with 6 samples.

Results

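The genes described here are 47 G2/M spindle and chromosome segregation genes, taken by symbol from a given list and followed in RNA-seq of sorted retinal endothelial cells. Each of the 47 symbols matched 1 of the 55487 gene identifiers of the table, and all 47 passed the filter of at least 10 reads in at least 3 libraries. Vascular endothelial cells (VECs) were sorted from retinas of mice at postnatal day 7.5 (P7.5), when the retinal vessels are growing by angiogenesis. The control group held 3 animals of genotype tdTomato FL/+;Pdgf-icreER, and the Bmal1;CKO group held 3 animals of genotype Bmal1 FL/FL;tdTomato FL/+;Pdgf-icreER. Both groups therefore carried the inducible Cre transgene Pdgf-icreER and the Cre-dependent reporter tdTomato, and pups of both were given tamoxifen daily between P0.5 and P2.5. The Pdgf-icreER transgene also produces GFP, and cells positive for both GFP and tdTomato were collected. The groups thus differed in the floxed Bmal1 alleles and not in Cre, and deletion is limited to cells in which the transgene is active. Bmal1 is a core transcription factor of the circadian clock, and the comparison asks how its deletion from the endothelium alters the transcripts of these cells. Libraries are called control 1 to 3 and Bmal1;CKO 4 to 6, with 71145068 to 104017800 reads on genes.

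Proliferating cells accumulate the transcripts of mitosis late in the cycle, in G2 and M phase, and lose them on leaving the cycle. Many promoters of such genes hold a cell cycle genes homology region (CHR) near the start and CCAAT boxes before it. In resting cells the CHR is bound by the DREAM complex, which represses these genes, and in dividing cells by the MuvB complex with B-Myb and FOXM1, which activates them. CCAAT boxes are bound by NF-Y. The clock proteins Bmal1 and Clock bind another motif, the E-box. In the P7.5 retina, endothelial cells of the growing plexus and retinal progenitors both divide, so transcripts of mitosis mark no single cell type.

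Promoter windows from RefSeq, on build GRCm38.p6, ran from 250 bases before to 50 bases after a transcription start and were found for 43 of the 47 genes. Windows of Dlgap5, Tpx2, Cdca2 and Smc4 were not used here. A CHR, searched as TTTGAA or TTCGAA on both strands, was held by 33 of the 43 genes (76.7%), compared with 21.7% of the 27025 genes with a window. Within 50 bases of the start, 26 of the 43 genes (60.5%) held a CHR, against 6.12% of all genes. A CCAAT box, searched as CCAAT on both strands, was held by 32 of the 43 (74.4%) against 41.1% of all genes, and both motifs in the same window by 26 (60.5%) against 8.61%. Neither motif contains the other. A match is a run of letters and not a site shown to be bound.

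The stretches of 6 of these genes show how the motifs were arranged, and each reads 5′ to 3′ on the strand of its gene, with CHR and CCAAT matches on either strand in capitals. Anp32e had the lowest p of the 47 genes in limma-trend, the test of the groups described below, though not in every other test. Bub1, Kif23 and Top2a had groups that did not overlap, and Cdc20 and Ube2c are usual proliferation markers. Each stretch starts 120 bases before the start, or 200 before it for Anp32e, and includes at most 30 bases of annotated exons.
Anp32e (chr3:95929057-95929275, forward strand): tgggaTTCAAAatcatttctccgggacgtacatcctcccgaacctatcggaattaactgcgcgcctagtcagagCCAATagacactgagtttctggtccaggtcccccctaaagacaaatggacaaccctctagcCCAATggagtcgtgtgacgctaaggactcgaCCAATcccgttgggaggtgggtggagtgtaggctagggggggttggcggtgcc
Bub1 (chr2:127831836-127831979, reverse strand): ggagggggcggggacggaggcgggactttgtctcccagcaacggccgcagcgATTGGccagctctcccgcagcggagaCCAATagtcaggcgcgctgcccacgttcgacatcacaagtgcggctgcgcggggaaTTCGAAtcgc
Cdc20 (chr4:118437323-118437463, reverse strand): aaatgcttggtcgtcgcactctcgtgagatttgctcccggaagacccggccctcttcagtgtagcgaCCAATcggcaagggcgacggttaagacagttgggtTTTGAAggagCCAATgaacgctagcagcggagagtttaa
Kif23 (chr9:61946770-61946919, reverse strand): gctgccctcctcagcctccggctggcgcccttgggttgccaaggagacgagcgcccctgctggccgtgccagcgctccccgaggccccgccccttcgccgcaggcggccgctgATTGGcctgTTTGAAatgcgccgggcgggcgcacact
Top2a (chr11:99024160-99024309, reverse strand): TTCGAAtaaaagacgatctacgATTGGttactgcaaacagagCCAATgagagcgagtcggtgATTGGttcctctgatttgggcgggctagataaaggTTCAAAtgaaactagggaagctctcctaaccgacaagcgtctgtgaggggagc
Ube2c (chr2:164769809-164769927, forward strand): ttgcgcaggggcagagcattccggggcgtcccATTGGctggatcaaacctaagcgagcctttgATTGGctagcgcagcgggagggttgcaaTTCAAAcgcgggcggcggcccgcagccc
Counted from the RefSeq start, the CHR of Cdc20 began 18 bases before the start and that of Ube2c 29 before it. In Kif23 and Bub1 it began 2 and 14 bases after it. In the GENCODE annotation all of these genes except Top2a begin at another base. For Ube2c and Kif23, the side of the start on which the CHR lay depends on the annotation. Of the 48 windows of the 43 genes, 37 had bases after the start that lay in a GENCODE transcript. Of the 4 CHR matches of Top2a, 1 began 23 bases before the start. The CHR of Anp32e lay farther away, 195 bases before the start, with CCAAT boxes between.

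**Figure D1:**
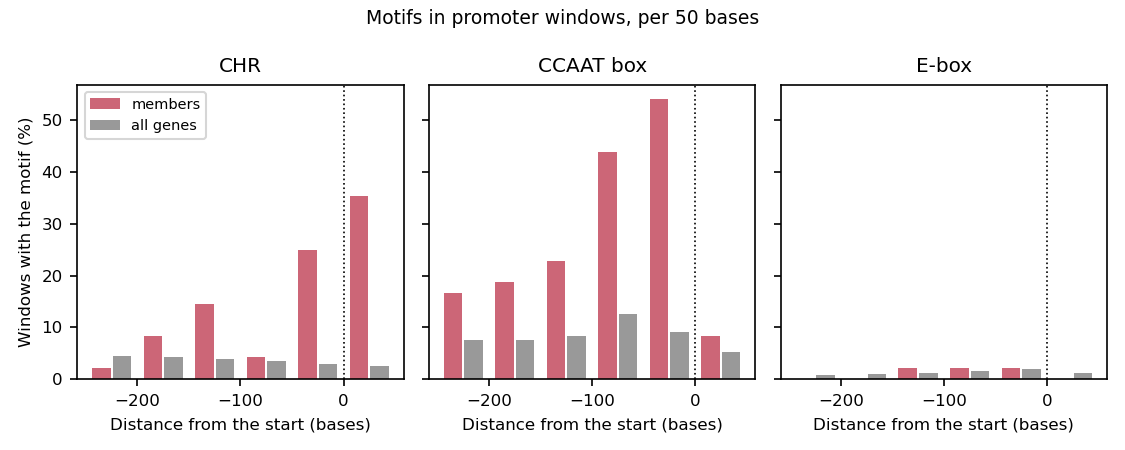
Share of promoter windows (%) with a CHR, a CCAAT box or an E-box in each stretch of 50 bases, against the distance from the transcription start, for the 48 windows of the members (red) and all 32851 windows (grey). The CHR of the members was most frequent in the 50 bases from the start on, at 35.4% of windows against 2.46% of all, and the CCAAT box in the 50 bases before it, at 54.2% against 9.03%.

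The canonical E-box CACGTG, which reads the same on both strands, was held by the windows of 3 of the 43 genes (6.98%), compared with 8.09% of all genes. These 3 were Anln, Cbx5 and Ttk, shown because the E-box is the motif of Bmal1 itself, with the E-box in capitals.
Anln (chr9:22389239-22389298, reverse strand): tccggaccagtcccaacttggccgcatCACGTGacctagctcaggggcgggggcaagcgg
Cbx5 (chr15:103239956-103240015, reverse strand): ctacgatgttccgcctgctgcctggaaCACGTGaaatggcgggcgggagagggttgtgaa
Ttk (chr9:83834617-83834676, forward strand): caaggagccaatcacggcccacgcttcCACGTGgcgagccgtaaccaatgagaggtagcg
The E-box of Anln began 65 bases before the start, that of Ttk 45 before it and that of Cbx5 136 before it. The log2 fold changes of these 3 genes between the groups were -0.25 for Anln, -0.69 for Cbx5 and 0.13 for Ttk. E-boxes farther from the start and variants of the motif were not searched.

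The 47 genes covered a wide range of levels. Per kilobase of exon, the mean over the 6 libraries ran from 19.6 normalized counts for G2e3 to 12189 for Tubb4b, with a median of 240.3. A normalized count is the number of reads divided by the size factor of its library. Behind Tubb4b stood Cks1b with 4482, Anp32e with 3873, Ctcf with 2201, Rangap1 with 1789 and Birc5 with 1695 normalized counts per kilobase. Tubb4b, Ctcf, Rangap1 and Anp32e serve cells outside mitosis as well, whereas Cks1b and Birc5 are bound to the cycle. The level of Tubb4b was uncertain, since the pseudogene Tubb4b-ps1 carried 4507 to 8671 reads of its own, equal to 22.0% to 24.6% of the reads on Tubb4b in each library, and reads of near-identical copies can be split between them.

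Over the 47 genes, transcripts were more often lower than higher in Bmal1;CKO, but no gene passed the test. The log2 fold change (Bmal1;CKO minus control) was below 0 for 33 genes and above 0 for 14, so that 70.2% were lower, compared with 43.4% of the 20459 genes tested. Its median was -0.17 over the 47 genes and 0.11 over all tested genes. With edgeR and TMM scaling, 34 of the 47 genes and 10662 of the 20459 tested genes were lower, with medians of -0.18 and -0.03. With only genes of at least 10 reads in every library, 33 of 45 members and 7595 of 15046 genes were lower. The share of all genes that were lower thus depended on the method and the filter. In bulk RNA, fewer dividing cells, less of these RNAs per cell and a different mix of cell types cannot be told apart. Levels of cell type markers are given below.

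The test was limma-trend on log2(normalized count + 1), with Benjamini-Hochberg adjustment over all tested genes. None of the 20459 genes reached an adjusted p under 0.05 in limma-trend, which is 0%, while 1007 had an unadjusted p under 0.05 (4.92%). At that adjusted level, edgeR with TMM scaling called 0 genes and the DESeq2 Wald test 67 (0.331%). Of the 47 genes, 2 had an unadjusted p under 0.05 in limma-trend, both lower in Bmal1;CKO, Anp32e and Tmpo, where 1.75% of all tested genes were lower at that level and 3.17% higher. In the DESeq2 Wald test 6 of the 47 genes passed the same unadjusted level, all lower, and none passed after adjustment. Of all genes, 6.01% passed it in that test, 3.38% lower and 2.63% higher. Without control 1, in which many genes had few reads, 31 of the 47 genes were lower and the median was -0.15, while over all tested genes 10208 of 20459 were lower and the median was 0.00, so the difference from all genes was smaller. The adjusted p of the 47 genes lay between 0.883 and 0.991 in limma-trend. Standard errors ran from 0.21 to 1.85 on the log2 scale, with a median of 0.42.

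A second count used the values of the libraries alone. In 9 of the 47 genes (19.1%) the 2 groups did not overlap, compared with 11.2% of all tested genes. Ndc80, Bub1, Nusap1, Kif23, Top2a, Cbx5, Anp32e and Tmpo were lower in every Bmal1;CKO library, 8 genes where 4.54% of all tested genes were, and Rangap1 was higher, where 6.62% were. With 3 libraries a group, a two-sided exact permutation test gives p = 0.1 at best, so it could not pass 0.05 for any single gene.

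**Figure D2:**
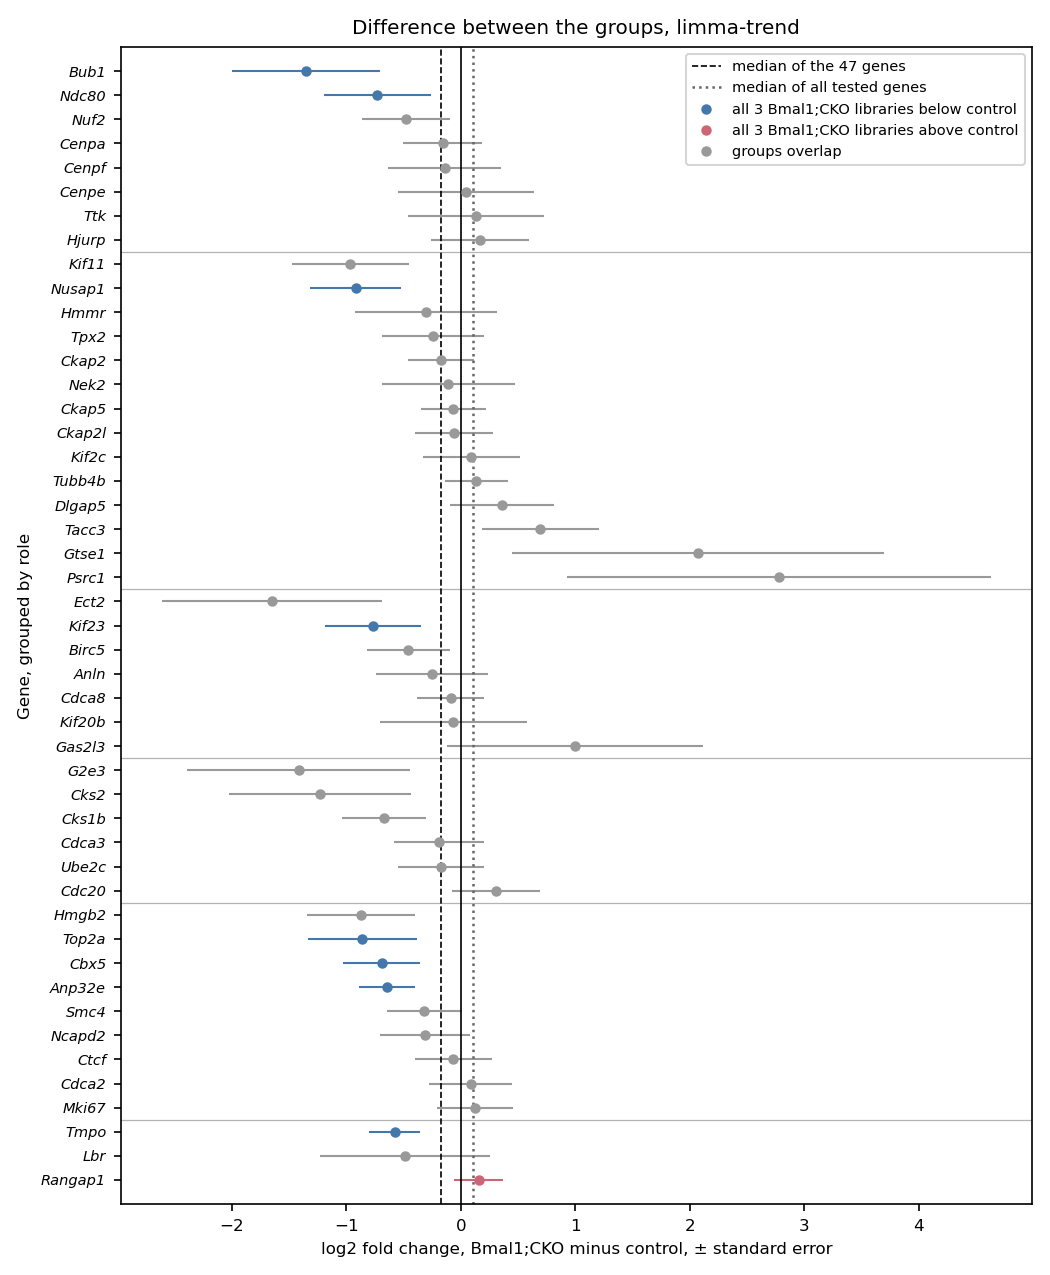
Log2 fold change (Bmal1;CKO minus control) of the 47 genes from limma-trend, with bars of 1 standard error, ordered by role, where blue and red points mark genes whose groups did not overlap. Most points lay left of 0, with the median of the 47 genes (dashed) at -0.17 and that of all tested genes (dotted) at 0.11.

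At the kinetochore, the structure that ties chromosomes to microtubules, 5 of 8 genes were lower and 3 higher, with a median log2 fold change of -0.15. Ndc80 (ENSMUSG00000024056, GRCm38 chromosome 17, 71496100 to 71526857, reverse strand) encodes the subunit of the outer kinetochore that grips microtubules. It had 834, 548 and 489 normalized counts in control 1 to 3 and 354, 458 and 301 in Bmal1;CKO 4 to 6. All Bmal1;CKO libraries lay below the lowest control library, and control 1 stood above the rest. In limma-trend the log2 fold change, given here as value ± standard error (SE), was -0.73 ± 0.47, with an adjusted p of 0.883.

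Bub1 (ENSMUSG00000027379, chromosome 2, 127801122 to 127831865, reverse strand), a kinase of the spindle checkpoint, had 239, 374 and 698 normalized counts in control and 121, 140 and 218 in Bmal1;CKO. The groups stood apart, though the highest Bmal1;CKO library was close to the lowest control library. It differed by -1.35 ± 0.65 (SE) on the log2 scale (limma-trend, adjusted p = 0.883), a value that ran from -1.72 without control 1 to -0.95 without control 3. Cenpa, the histone that marks the centromere, had 4605, 5067 and 3319 normalized counts in control and 5924, 3150 and 2989 in Bmal1;CKO. The highest library of Cenpa was Bmal1;CKO 4, so the groups overlapped, and the log2 fold change was -0.16 ± 0.34 (SE).

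The other 5 kinetochore genes overlapped between the groups. Nuf2, the partner of Ndc80, stood at a log2 fold change of -0.48 ± 0.39 (SE). Hjurp, the chaperone that loads Cenpa, stood at 0.17, and the checkpoint kinase gene Ttk at 0.13. Cenpe, a kinesin of the kinetochore, and Cenpf, a large kinetochore protein, stood at 0.05 and -0.14, and both had their highest value in control 1.

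Among the 14 genes of spindle assembly, motors and microtubules, 8 were lower and 6 higher, with a median log2 fold change of -0.06. Without 1 library at a time, this median lay between -0.14 and 0.12. Nusap1 (ENSMUSG00000027306, chromosome 2, 119618298 to 119651244, forward strand), which bundles spindle microtubules, had 1225, 732 and 935 normalized counts in control and 557, 507 and 438 in Bmal1;CKO. The highest Bmal1;CKO library was below the lowest control library, and the spread within Bmal1;CKO was small. On the log2 scale the difference was -0.92 ± 0.40 (SE), with an adjusted p of 0.883 in limma-trend.

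Tubb4b, a β-tubulin and the most abundant of the 47 genes per length, had 23291, 22685 and 25806 normalized counts in control and 35862, 24402 and 20654 in Bmal1;CKO. Only Bmal1;CKO 4 was high, and the log2 fold change of 0.14 ± 0.28 (SE) turned to -0.09 without it. Kif11, the motor that pushes spindle poles apart, stood at -0.97 ± 0.51 (SE), with groups that overlapped through Bmal1;CKO 6. Tacc3, which strengthens kinetochore fibres, stood at 0.70 ± 0.51 (SE), a value that was 0.16 without control 1 and 1.21 without control 3.

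The largest positive values of the 47 genes came from Psrc1 and Gtse1, both microtubule regulators, described after their values were seen. Psrc1 had 2.46, 706 and 392 normalized counts in control and 896, 779 and 442 in Bmal1;CKO, and only 2 reads in control 1. Gtse1 had 8.61, 401 and 1316 in control and 713, 547 and 969 in Bmal1;CKO, with 7 reads in control 1. Both had groups that overlapped, and control 1 stood far below the other 5 libraries. Their log2 fold changes of 2.78 ± 1.85 (SE) and 2.07 ± 1.63 (SE) became 0.36 and -0.01 without control 1. The remaining 8 spindle genes (Hmmr, Tpx2, Ckap2, Nek2, Ckap5, Ckap2l, Kif2c and Dlgap5) lay between -0.30 and 0.36.

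Of the 7 genes of the chromosomal passenger complex and of cytokinesis, 6 were lower and 1 higher, with a median of -0.25. Kif23 (ENSMUSG00000032254, chromosome 9, 61915905 to 61946774, reverse strand), the kinesin of the central spindle, had 1264, 935 and 714 normalized counts in control and 647, 412 and 643 in Bmal1;CKO. No Bmal1;CKO library reached the lowest control library. Its log2 fold change was -0.77 ± 0.42 (SE; adjusted p = 0.883, limma-trend).

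Birc5, which encodes survivin of the chromosomal passenger complex, had 8191, 6099 and 5285 normalized counts in control and 7785, 3569 and 3666 in Bmal1;CKO. Bmal1;CKO 4 lay among the control libraries, and the other 2 lay below all of them. Its log2 fold change was -0.46 ± 0.37 (SE). Without Bmal1;CKO 4 it was -0.83, at an unadjusted p of 0.0324 in limma-trend (adjusted p = 0.977). Cdca8, the borealin subunit of the same complex, stood at -0.09 and was also highest in Bmal1;CKO 4.

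The other cytokinesis genes were measured with less precision. Ect2, which starts the cleavage furrow, had 101, 377 and 129 normalized counts in control and 39.4, 134 and 28.8 in Bmal1;CKO. Its groups overlapped, and its log2 fold change of -1.65 was the lowest of the 47 genes (SE 0.96). Gas2l3, which links actin and microtubules, stood at 1.00 ± 1.12 (SE) and at -0.23 without control 1, where it had 25 reads. Anln, the scaffold of the contractile ring, and the kinesin gene Kif20b stood at -0.25 and -0.06.

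The anaphase-promoting complex, a ubiquitin ligase, ends mitosis by marking cyclin B and securin for destruction. Of the 6 genes for its partners, for other ubiquitin ligases and for the CKS subunits of cyclin-dependent kinases, 5 were lower and 1 higher, with a median of -0.43, and the groups of all 6 overlapped. Cks1b had 7905, 6616 and 4036 normalized counts in control and 5610, 3159 and 2950 in Bmal1;CKO. Bmal1;CKO 4 lay above control 3, and the other 2 lay below every control library, and the log2 fold change was -0.67 ± 0.37 (SE). Its relative Cks2 had 753, 625 and 147 in control and 201, 253 and 105 in Bmal1;CKO. Control 3 was low among the controls, and the log2 fold change of -1.23 ± 0.79 (SE) was -1.97 without it and -0.79 without control 1.

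Ube2c and Cdc20 act on the anaphase-promoting complex, as its ubiquitin-conjugating enzyme and its activator. Ube2c had 4257, 3612 and 2831 normalized counts in control and 5214, 2231 and 2603 in Bmal1;CKO. Cdc20 had 1238, 1965 and 2522 in control and 3217, 1756 and 2053 in Bmal1;CKO. In both genes Bmal1;CKO 4 was the highest of the 6 libraries, and the log2 fold changes were -0.17 ± 0.38 (SE) and 0.31 ± 0.38 (SE). That of Cdc20 was 0.02 without control 1 and 0.05 without Bmal1;CKO 4. Cdca3 showed the pattern of Ube2c, at -0.19. G2e3, a ubiquitin ligase and the scarcest gene per length, stood at -1.42 ± 0.97 (SE).

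Chromosome structure and chromatin gave 7 lower and 2 higher genes of 9, with a median of -0.32. Anp32e (ENSMUSG00000015749, chromosome 3, 95929246 to 95947390, forward strand), the chaperone that removes the histone H2A.Z, had 14089, 20530 and 16071 normalized counts in control and 9176, 11802 and 11210 in Bmal1;CKO. The lowest control library was above the highest Bmal1;CKO library. In limma-trend the difference was -0.65 ± 0.25 (SE) on the log2 scale, a ratio of 0.639, with an unadjusted p of 0.0325 that did not hold after adjustment (0.883). It was below 0 in each fit without 1 library, from -0.77 to -0.50. The control mean was 16896 ± 3299 normalized counts (SD, n = 3) and the Bmal1;CKO mean 10729 ± 1378 (SD, n = 3).

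Top2a (ENSMUSG00000020914, chromosome 11, 98992943 to 99024189, reverse strand), the topoisomerase that untangles sister chromatids, had 4394, 1485 and 1409 normalized counts in control and 1291, 1036 and 1147 in Bmal1;CKO. The groups did not overlap, yet control 2 and control 3 lay just above Bmal1;CKO 4, and control 1 was far above all others. Its log2 fold change of -0.86 ± 0.48 (SE; adjusted p = 0.883, limma-trend) was -0.33 without control 1. Cbx5 (ENSMUSG00000009575, chromosome 15, 103191544 to 103239816, reverse strand), which encodes the heterochromatin protein HP1α, had 5198, 3141 and 3002 in control and 2246, 1737 and 2986 in Bmal1;CKO. Bmal1;CKO 6 almost reached control 3, and the difference was -0.69 ± 0.34 (SE; adjusted p = 0.883, limma-trend).

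Mki67, the coat of mitotic chromosomes and the usual marker of proliferation, had 6095, 2750 and 3686 normalized counts in control and 4183, 4127 and 4622 in Bmal1;CKO. The Bmal1;CKO libraries lay close together and within the range of the controls. Its log2 fold change was 0.12 ± 0.33 (SE), and it changed from 0.44 without control 1 to -0.14 without control 2. Hmgb2, a DNA-bending protein, stood at -0.88 ± 0.47 (SE), with control 3 among the Bmal1;CKO libraries. The condensin genes Smc4 and Ncapd2 stood at -0.32 and -0.31, Ctcf, the factor that organizes chromatin loops, at -0.06, and Cdca2, a phosphatase subunit of anaphase chromatin, at 0.08.

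Tmpo (ENSMUSG00000019961, chromosome 10, 91147571 to 91181315, reverse strand) encodes the LAP2 proteins of the inner nuclear membrane and nucleoplasm, which rejoin chromatin as the nuclear envelope reforms. It had 8961, 10967 and 9710 normalized counts in control and 6004, 6381 and 7474 in Bmal1;CKO. All controls lay above all Bmal1;CKO libraries, and the spread within each group was small. In limma-trend Tmpo differed by -0.58 ± 0.22 (SE) on the log2 scale, a ratio of 0.670, with an unadjusted p of 0.0341 and 0.883 after adjustment. Without 1 library at a time the value lay between -0.67 and -0.50. The control mean was 9879 ± 1014 normalized counts (SD, n = 3) and the Bmal1;CKO mean 6620 ± 763.5 (SD, n = 3).

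Lbr, the lamin B receptor of the same membrane, stood at -0.49 ± 0.74 (SE), and at -1.31 without control 1, the lowest library for that gene. Rangap1 (ENSMUSG00000022391, chromosome 15, 81704248 to 81745530, reverse strand), which activates the GTPase Ran, had 8472, 7391 and 8881 normalized counts in control and 9160, 9080 and 9217 in Bmal1;CKO. The Bmal1;CKO libraries were nearly equal and just above the highest control. The difference was only 0.15 ± 0.21 (SE) on the log2 scale, at an adjusted p of 0.902 in limma-trend.

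**Figure D3:**
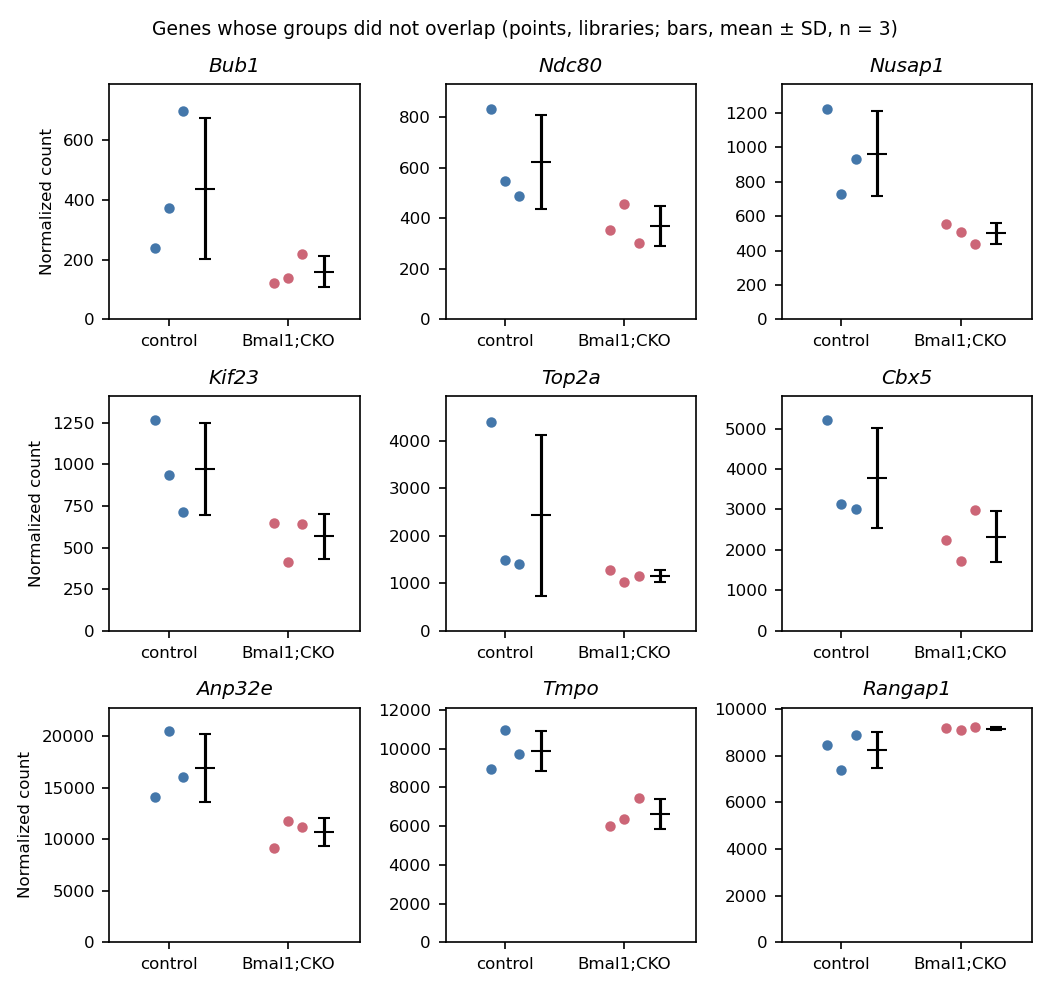
Normalized counts (y axis, from 0) of the 9 genes whose groups did not overlap, with a point for each library and bars for the mean ± SD (n = 3). The bars of the groups did not overlap in Nusap1, Anp32e, Tmpo and, by a small gap, Rangap1, whereas in Top2a control 1 alone stood far above the rest.

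The 47 genes did not move as a single block across the libraries. The median fold between the highest and the lowest library of a gene was 2.66, and 11 genes spanned over 4-fold. Of these 11, Psrc1, Gtse1, Gas2l3, Lbr, Nek2 and Tacc3 were lowest in control 1. Control 1 was the highest library for 15 of the 47 genes (31.9%, against 26.9% of all tested genes) and the lowest for 10 (21.3%, against 36.4%). Bmal1;CKO 5 was the highest for 0 of the 47 (against 11.4% of all) and the lowest for 10 (21.3%, against 7.63%). The SD of the log2 values was larger in control than in Bmal1;CKO for 30 of the 47 genes (63.8%), as it was for 75% of all tested genes. In control 1, 20.6% of all tested genes had under 10 reads, against 2.18% to 8.92% in the other libraries, and the part of this dropout in the fold changes was not tested.

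The level of the whole group in a library was read from the median deviation of its genes from their own means on the log2 scale. It was 0.16, 0.12 and 0.07 in control 1 to 3 and -0.16, -0.21 and -0.06 in Bmal1;CKO 4 to 6, so the groups did not overlap, although the span was small. For the shorter of the 47 genes alone, described below by length, the groups overlapped. Over all tested genes the same median lay between -0.09 and 0.11, with no order by group. For the other genes of mitosis described below it was 0.09, 0.02 and 0.29 in control and 0.14, -0.11 and -0.01 in Bmal1;CKO. For S phase genes it was 0.02, -0.06 and 0.31 in control and -0.04, -0.22 and -0.01 in Bmal1;CKO. In both of these lists the groups overlapped. The summed normalized counts of the 47 genes, in which the most abundant genes weigh most, were 158249, 141749 and 139198 in control and 146087, 119910 and 119144 in Bmal1;CKO. By this sum the groups overlapped, since Bmal1;CKO 4 lay between the controls. The direction of the median fold change did not depend on 1 library: it ran from -0.29 without control 2 to -0.12 without Bmal1;CKO 5. Single genes were less stable, with 20 of the 47 lower and 5 higher in each of the 6 fits without 1 library, and 22 that changed sign. The medians of the roles moved as well without 1 library. They ran from -0.40 without Bmal1;CKO 4 to -0.05 without Bmal1;CKO 5 for the kinetochore and from -0.40 without control 3 to -0.07 without Bmal1;CKO 5 for the passenger complex and cytokinesis. For the partners of the anaphase-promoting complex and the CKS genes they ran from -0.64 without control 3 to -0.25 without control 1, for chromatin from -0.60 without Bmal1;CKO 6 to -0.14 without Bmal1;CKO 4, and for the nuclear envelope from -0.67 without Bmal1;CKO 6 to -0.03 without control 3.

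**Figure D4:**
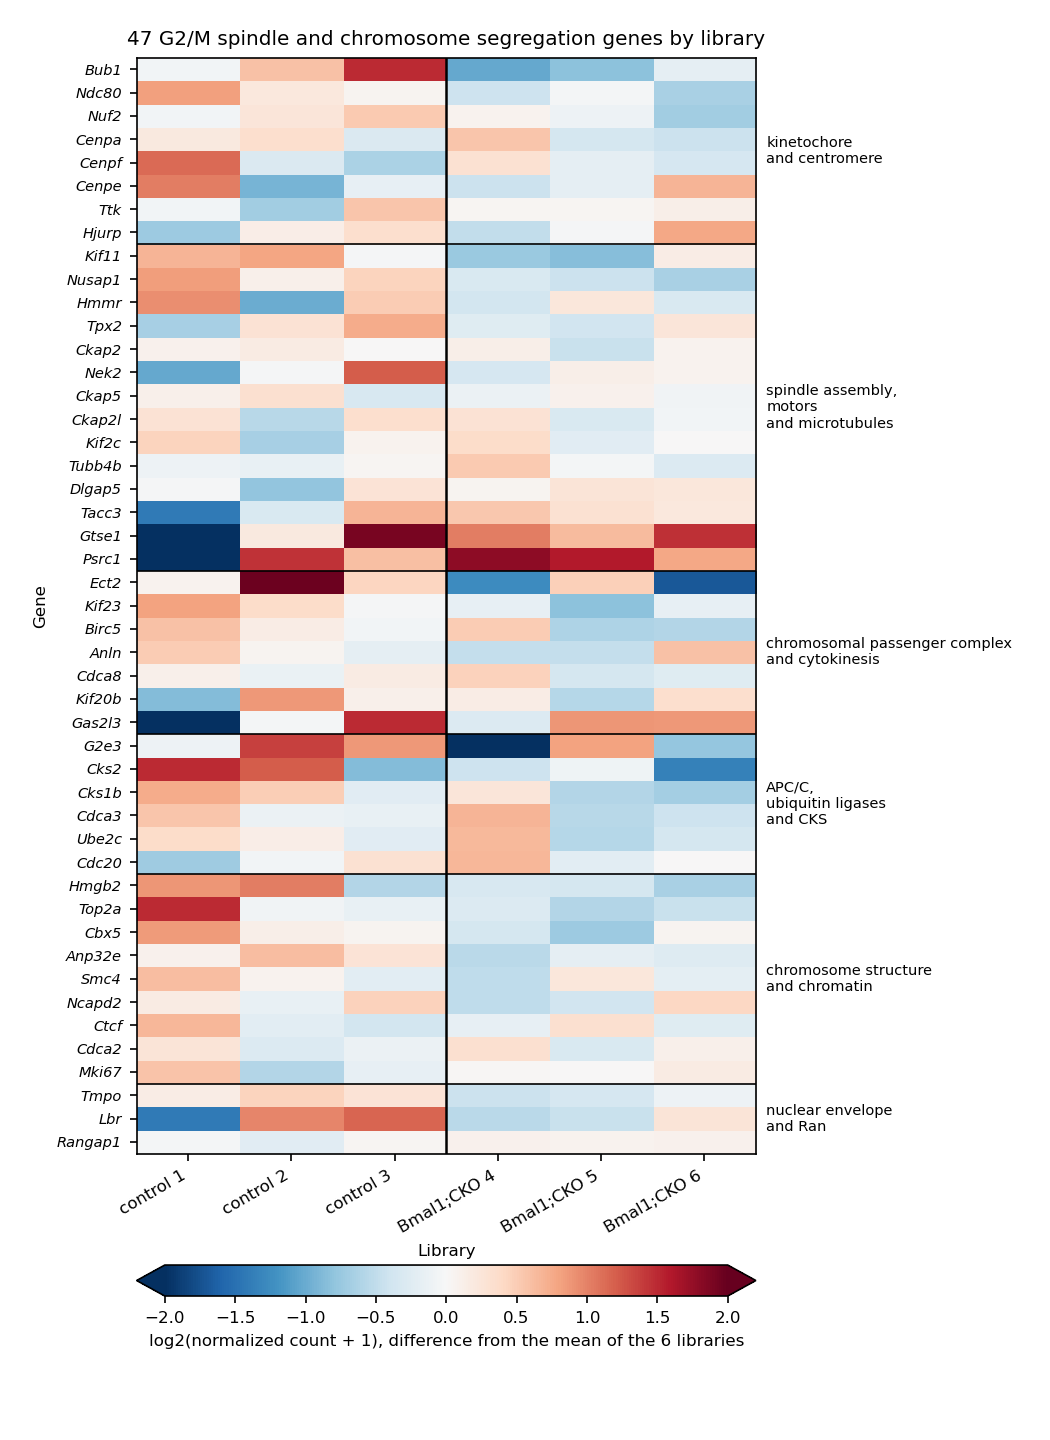
Heat map of the 47 genes (rows, by role) in the 6 libraries (columns), coloured by the difference of log2(normalized count + 1) from the mean of the gene over the libraries, from blue (lower) to red (higher). Blue prevails in Bmal1;CKO 5, Psrc1 and Gtse1 are deep blue in control 1, and Cenpa, Birc5, Ube2c, Cdc20 and Cdca3 are red in Bmal1;CKO 4.

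Bmal1;CKO 4 divided the genes by their length. The 24 genes with at most 5177 exon bases had a median deviation of 0.19 in that library and the 23 longer genes -0.36. Among all tested protein-coding genes split at the same length, the medians in Bmal1;CKO 4 were 0.18 for 8737 shorter and -0.11 for 5937 longer genes. Over the 6 libraries, the shorter of the 47 genes had medians of 0.08, 0.11 and 0.22 in control and 0.19, -0.27 and -0.12 in Bmal1;CKO, so the groups overlapped. The longer had 0.26, 0.12 and 0.06 in control and -0.36, -0.17 and -0.06 in Bmal1;CKO, so their groups did not overlap. The median log2 fold change was -0.14 for the shorter and -0.30 for the longer of the 47 genes, with 16 and 17 genes lower. The part of length in the differences between the groups was not tested beyond this split, which was made after the values were seen.

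**Figure D5:**
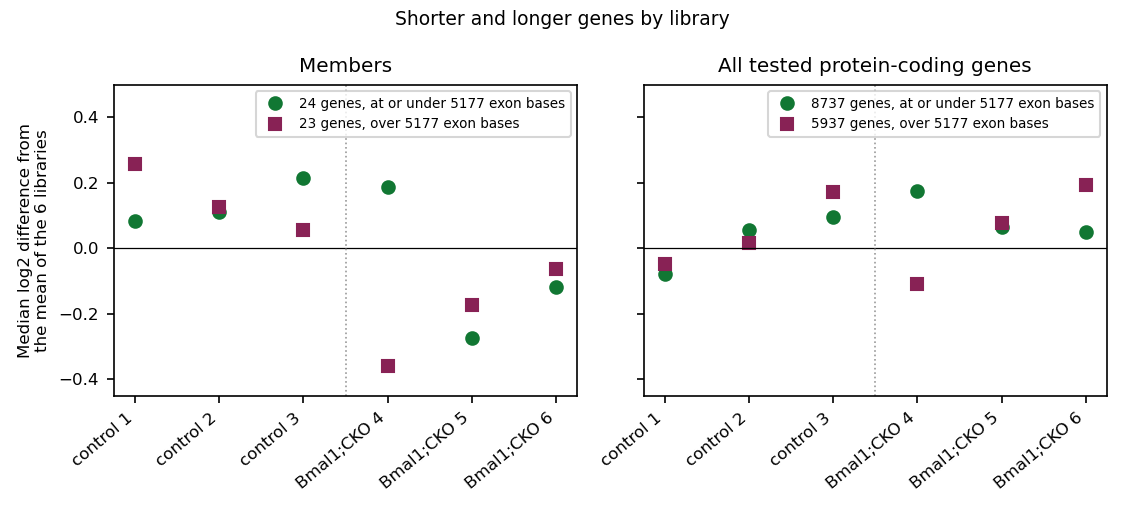
Median log2 difference from the mean of the 6 libraries (y axis) in each library (x axis) for shorter genes (green circles) and longer genes (purple squares), for the 47 genes at left and all tested protein-coding genes at right. The widest gap of the 47 genes is in Bmal1;CKO 4, at 0.19 against -0.36, and the same order is seen there for all genes, at 0.18 against -0.11.

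Other genes of mitosis came from lists that do not share a gene with the 47. Their median log2 fold change was higher than that of the 47 in each setting except without control 1. The difference between the lists was not tested. Of 90 such genes 89 were tested, with 48 lower and 41 higher and a median log2 fold change of -0.06. This median ran from -0.22 without control 2 to 0.02 without Bmal1;CKO 5, and without control 1 it was -0.18, below the -0.15 of the 47 genes. An unadjusted p under 0.05 was found for 3, all lower: Ccnb1, the cyclin of mitotic entry, at -1.10 ± 0.42 (SE), Ska2, a kinetochore protein, at -1.09 ± 0.44 (SE), and Rad21, a cohesin subunit, at -0.94 ± 0.33 (SE), each with an adjusted p of 0.883 in limma-trend. Their separate lists had medians of -0.13 for 39 kinetochore and checkpoint genes, 0.06 for 25 spindle and cytokinesis genes, -0.10 for 11 condensin, cohesin and separase genes and -0.15 for 14 mitotic cyclins and transcription factors of G2/M. Foxm1 and Mybl2, the activators that act through the CHR, stood at 0.10 ± 0.38 (SE) and 0.02 ± 0.56 (SE), Lin9 of the MuvB complex at -0.07 ± 0.81 (SE), and Cdk1 at -0.21 ± 0.30 (SE). Genes of S phase, the step before G2, were lower in 29 of 38, with a median of -0.29. The S phase median ran from -0.34 without control 2 to -0.16 without control 3, where 22 of 38 were lower. An unadjusted p under 0.05 in limma-trend was found for 1 higher S phase gene, Ung, at 2.47 ± 0.60 (SE; adjusted p = 0.856). It was also found for 1 lower gene, Usp1, at -0.94 ± 0.29 (SE; adjusted p = 0.883). The members with a CHR in their window had a median of -0.17 (24 of 33 lower), and the 10 without one -0.47 (7 of 10 lower).

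Markers of the cell types that the sort could hold also differed in level between the libraries. All 14 endothelial markers were detected in each library, with sums of 202216 to 424870 normalized counts in control and 123856 to 260963 in Bmal1;CKO, and 14 of 14 were lower, at a median log2 fold change of -0.50. This median was -0.16 both without control 1 (12 of 14 lower) and without Bmal1;CKO 5 (11 of 14) and -0.92 without Bmal1;CKO 6, and 0 of the 14 had groups that did not overlap or an unadjusted p under 0.05. The 10 markers of microglia and macrophages summed to 6.41 to 10.2 times the endothelial sum in control and 8.09 to 23.0 times in Bmal1;CKO, so the label of sorted endothelial cells did not hold for all of the RNA. The microglia sums themselves overlapped, at 1.46e+06 to 4.31e+06 normalized counts in control and 2.11e+06 to 4.21e+06 in Bmal1;CKO. Of these 10 markers 9 were higher and 1 lower, and 0 had groups that did not overlap. Their median log2 fold change was 0.41, and it ran from 0.08 without control 2 to 0.82 without control 1. Markers of retinal progenitors, which divide at this age, summed to 40962 to 60201 in control and 67212 to 88974 in Bmal1;CKO, with 9 of 10 higher, a median of 0.94, and Sox2, Fgf15 and Sfrp2 at 0 in at least 1 library. In 6 of these 10 markers all Bmal1;CKO libraries lay above all controls, where 6.62% of all tested genes did. An unadjusted p under 0.05 in limma-trend was found for 2 of the 10, both higher, against 3.17% of all tested genes, and for 0 after adjustment. Sums of pericyte markers were 2782 to 46884 in control and 4395 to 7682 in Bmal1;CKO, of erythroid markers 1257 to 19008 and 1438 to 9934, of astrocyte markers 424 to 6060 and 1213 to 2447, and of Müller glia markers 35651 to 41245 and 37271 to 50021. Which cells held the transcripts of mitosis, and the part of these shifts in their levels, was not tested.

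The targeted gene could not check the labels here, since the table gives 1 value for the whole gene and the reads of the deleted exon were not analysed. Bmal1, listed as Arntl, differed by -0.19 ± 0.36 (SE) on the log2 scale, at an adjusted p of 0.924 in limma-trend.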

How the data were processed

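Sorted VECs of 3 control and 3 Bmal1;CKO animals at P7.5 gave 1 RNA-seq library each. Per the labels and methods, the authors amplified the RNA from poly-A tails, trimmed with Trimmomatic, aligned to GRCm38 (mm10) and counted reads per gene with featureCounts. The deposited signal of each gene is its read count over the library's DESeq2 size factor. The table also holds the authors' own comparison, a mean, fold changes and p-values, which was not used. Multiplying by the size factors (0.711 to 1.40) gave whole reads for 100% of the values within 0.01. The use of strand and of reads with several matches is not given in the sources used here. Columns name the genotype only and were used as replicates of their group. P-values measure the spread between these 3 libraries a group.

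The test was limma-trend (limma 3.58.1, R 4.3.3) on log2(normalized count + 1), two-sided, with genotype as the only term, over 20459 genes that had 10 or more reads in 3 or more libraries. The added 1 shrinks the fold change of low genes, but where 1 library was nearly empty this scale could give the larger value. Psrc1 stood at 2.78 in limma-trend and 0.94 in edgeR with TMM scaling, and Gtse1 at 2.07 and 0.35. Alternatives were edgeR 4.0.16 with TMM scaling or DESeq2 size factors, DESeq2 1.42.0, limma-voom, log2 CPM, pseudocounts of 0.5 and 10, other read filters and each library left out, where a group of 2 is compared with a group of 3. The scripts were tested on simulated data. Positions and exon lengths came from GENCODE M21, and promoters from RefSeq. Library depth was 71145068 to 104017800 reads on genes, and amplified reads are not independent molecules.

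The 47 genes, their roles and the other lists were chosen with earlier results of these data known. Genes with values for each library are those at an unadjusted p under 0.05, those whose groups did not overlap, the gene of each role with the most normalized counts per kilobase, and the markers Mki67, Top2a, Birc5, Cdc20, Ube2c, Cenpa, Cks1b and Cks2. Ect2, Gtse1 and Psrc1 were added after their values were seen. One marker list is not reported here.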

Additional observations from a re-analysis of the deposited data

How the results depend on the processing

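No paired analysis was possible because the columns of the table carry no replicate number of the labels. The median log2 fold change of the 47 genes stayed below 0 in all 15 alternatives, from -0.29 to -0.12. The number of the 47 genes at an unadjusted p under 0.05 was 2 in limma-trend and 6 in the DESeq2 Wald test (Anp32e, Bub1, Hmgb2, Nusap1, Tmpo and Top2a, all lower). In the DESeq2 Wald test 6.01% of all genes passed in either direction, and 3.38% passed and were lower. Leaving out 1 library gave between 0 and 5: 4 without control 1 (8.65% of all genes passed), 1 without control 2 (4.6%), 5 without control 3 (11.9%), 2 without Bmal1;CKO 4 (2.31%), 0 without Bmal1;CKO 5 (2.17%) and 1 without Bmal1;CKO 6 (3.35%), so the highest counts were near these shares. Over all genes, 0 passed an adjusted p under 0.05 in limma-trend, 67 in DESeq2, 1 with the filter of at least 1 read in total and 1 with at least 10 reads in every library. Without 1 library this was 0 to 6, and the 6 came without control 1. None of the 47 genes was among those calls. Without 1 library the log2 fold change changed sign in Cenpa (-0.47 without Bmal1;CKO 4 to 0.019 without Bmal1;CKO 6), Tubb4b (-0.090 without Bmal1;CKO 4 to 0.31 without Bmal1;CKO 6), Ube2c (-0.55 without Bmal1;CKO 4 to 0.067 without Bmal1;CKO 5) and Mki67 (-0.14 without control 2 to 0.44 without control 1), none of them past an adjusted p of 0.05. The other 251 values of named genes kept their direction and their side of the adjusted threshold, although Bub1, Nusap1, Birc5, Top2a, Cks1b, Cks2, Anp32e and Tmpo crossed an unadjusted p of 0.05 in at least 1 setting, and the cause of the changes was not tested. With 3 libraries a group, a typical standard error of 0.42 limits what could be detected.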
